A study of Mus musculus and blank sample with 91 samples.

Results

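Clostridiaceae is a family of mostly anaerobic, spore-forming Firmicutes of the order Clostridiales, and in these mice its share of the fecal 16S counts was followed through experimental autoimmune encephalomyelitis (EAE), a mouse model of multiple sclerosis. Its members were all amplicon sequence variants (ASVs, the exact read sequences that the authors inferred) whose family was Clostridiaceae in the deposited taxonomy. This held for 46 of 2295 ASVs. No measured value entered that rule, but earlier results of these data were known when it was set. The members held 146413 counts, or 2.61% of all counts. Fecal pellets came from female C57BL/6 mice (C57BL/6J by the methods of the study) in 3 treatments, each sampled at 5 times given in days post immunization (dpi): -2 dpi before treatment, 8 dpi before clinical signs, 14 dpi at early onset, 19 dpi at the peak and 29 dpi in the chronic phase. EAE mice were immunized with MOG35-55 peptide, a piece of a myelin protein, in complete Freund's adjuvant (CFA), and were given pertussis toxin on days 0 and 2. CFA mice received the adjuvant without peptide and without pertussis toxin, and naïve mice received neither, so the EAE/CFA comparison differs by both peptide and toxin. Each group held 6 mice, except 5 CFA mice at 29 dpi and 5 EAE mice at 14 dpi. Mice were housed 2 or 3 to a cage with the treatment given by cage, so mice of a cage are not independent, cage cannot be told apart from treatment, and p-values measure the spread between these mice.

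Clostridia of this order live by fermenting sugars and amino acids, and many form short-chain fatty acids such as butyrate, which host cells of the colon use and which bear on regulatory T cells. Clostridium sensu stricto is the core genus around which the family is defined. Names such as Clostridium XlVb were given to species that carry the old genus name but sit elsewhere in the order by their 16S gene, and Butyricicoccus is named for the butyrate it makes.

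The 46 ASVs fell into 3 genera with 1 species label each. Clostridium sensu stricto 1, labelled Clostridium celatum/disporicum, held 28 ASVs and 138025 counts, or 94.3% of the counts of the family, and was found in 54 of 88 samples. Tyzzerella-Clostridium XlVb, labelled Clostridium colinum, held 15 ASVs and 7648 counts (5.22%) in 25 samples. Butyricicoccus, labelled Butyricicoccus pullicaecorum, held 3 ASVs and 740 counts (0.505%) in 3 samples. Values for the family are therefore very largely values for Clostridium sensu stricto 1. Of 88 samples, 22 held no count of any member: 6 of 30 naïve, 14 of 29 CFA and 2 of 29 EAE samples.

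Many of these ASVs differed only within the PCR primers, which had been left on the sequences and hold positions where several bases are allowed. With the primers removed, the 46 ASVs came down to 12 distinct sequences, numbered here by total count, of which sequences 1, 2, 3 and 5 occurred in 3 or more samples. Sequence 1, of 402 bases, was written as 16 ASVs and carried 136627 counts, or 93.3% of the counts of the family and 99.0% of those of its genus. The largest of these 16 variants held 15.1% of the counts of sequence 1 and the smallest 1.47%. A sample with sequence 1 held between 1 and 15 of the variants, with a median of 2, and the number of variants followed the count across samples with Spearman's rho of 0.90, a description over 51 samples that differ in depth. In 22 of the 51 samples a single variant was present, with up to 1453 counts. The number of Clostridiaceae ASVs in a sample is thus no count of strains.

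**Figure D1:**
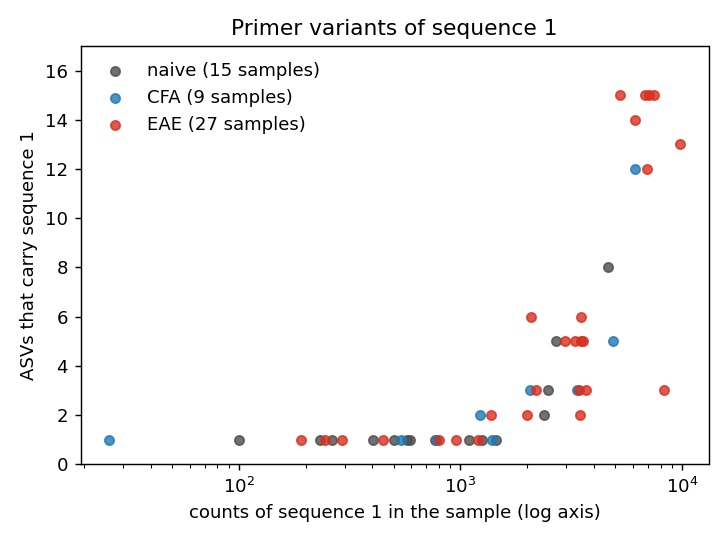
Number of ASVs that carry sequence 1, out of 16 primer variants (vertical axis), against the counts of sequence 1 in the sample (horizontal log axis), with a point for each of 51 samples colored by treatment. The 22 samples with a single variant lie at or below 1453 counts, and up to 15 variants are seen among the samples with the most counts, though not in all of these.

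The labels were set against the sequences themselves. Sequence 1 was nearest, outside the family, to a Peptostreptococcaceae sequence labelled Romboutsia, with 88.6% of bases identical. Sequence 2, the larger of the C. colinum sequences (405 bases, 9 ASVs, 5138 counts), was 81.0% identical to sequence 1 and 89.6% identical to a Lachnospiraceae sequence labelled Coprococcus. Sequence 3, also labelled C. colinum (406 bases, 5 ASVs, 2506 counts), was 84.0% identical to sequence 1 and 89.9% identical to its nearest Lachnospiraceae sequence, and 91.1% identical to sequence 2. Sequence 6, the larger of the Butyricicoccus sequences, was 84.9% identical to sequence 1 and 91.1% identical to its nearest Ruminococcaceae sequence. By these letters the minor genera lie closer to other families than to the main sequence of their own, so they are described below by genus, and the family name is kept as the rule for membership. The label of the main genus joins a pair of species names, C. celatum and C. disporicum, and the data do not separate them.

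Depth lay between 9202 and 102437 counts per sample, with 64586 in the middle sample of 88, and the median was 65306.5 in naïve, 65928 in CFA and 55362 in EAE samples. A floor of 3 counts, taken as the least a sample could show, was at most 0.0326% of a sample, and it covers counting error only. The lowest count above 0 in any sample was 26 for Clostridium sensu stricto 1, 114 for Tyzzerella-Clostridium XlVb and 87 for Butyricicoccus, all well above the floor, while the rarest single sequences held fewer, down to 4 counts. Of all ASV counts above 0, about 5% were below 50, so few low counts were left after ASV inference, and a 0 limits a share less tightly than the floor. Values are shares of the counts of a sample. Bacterial load was not measured, and a higher share can come with more of a taxon or less of the others. Lactobacillaceae, the family of the lactic acid bacteria and the largest share before treatment, is the case where this matters, with a mean of 31.5% of counts in EAE mice at -2 dpi against 14.5%, 1.14%, 1.60% and 2.61% at 8, 14, 19 and 29 dpi.

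Before treatment the main genus showed no difference past the threshold. At -2 dpi Clostridium sensu stricto 1 averaged 0.819% ± 0.933 (SD, n = 6) in naïve, 1.59% ± 0.906 (n = 6) in CFA and 1.41% ± 1.07 (n = 6) in EAE mice, and it was detected in 4, 6 and 6 of 6 mice. No comparison between treatments passed the edgeR quasi-likelihood test at that time, with log2 fold changes (L2FC) of 0.35 for EAE/naïve, -0.63 for EAE/CFA and 0.98 for CFA/naïve and Benjamini-Hochberg adjusted p (P-adj) of 1 in each. Of the 65 genera tested in the same fit, 1.54%, 3.08% and 7.69% passed in these comparisons at -2 dpi.

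In EAE mice, Clostridium sensu stricto 1 stood at several percent of counts from 8 dpi to 29 dpi. At 8 dpi the 6 mice held 10.7%, 0%, 4.47%, 0%, 6.37% and 6.25%, for a mean of 4.64% ± 4.14 (SD). The mice at 0, 551 and 555, had the totals 17439 and 9202, of which 3 counts are 0.0172% and 0.0326% and 50 counts are 0.287% and 0.543%. At -2 dpi the same animals had held 0.345% and 0.662%, not far above the latter, so a low share could go unseen in these 2 samples. At 14 dpi all 5 sampled mice carried the genus, at 4.28%, 4.61%, 9.79%, 9.32% and 3.69%, with a mean of 6.34% ± 2.96. At 19 dpi the lowest, median and highest of 6 mice were 1.04%, 4.59% and 13.0%, with a mean of 5.71% ± 4.09. At 29 dpi they were 4.50%, 7.32% and 13.3%, with a mean of 7.98% ± 2.99, the highest of the 15 group means. After 8 dpi no EAE sample lacked the genus.

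In CFA mice the same genus was nearly absent at 8, 14 and 19 dpi. At -2 dpi all 6 had carried it, from 0.410% to 2.93%. At 8 dpi all 6 were at 0, with totals between 31179 and 83614. At the lowest of these totals 3 counts are 0.00962% and 50 counts are 0.160%, below every share of the group at -2 dpi. At 14 dpi and again at 19 dpi only mouse 543 held counts, at 0.0364% and 0.125%. At 29 dpi mice 543, 544 and 545 held 6.96%, 4.72% and 5.57% and mice 546 and 547 were at 0, so the group mean of 3.45% ± 3.25 (n = 5) describes neither set. The order of levels within the treatment was thus 0% at 8 dpi, near 0 at 14 and 19 dpi, and at 29 dpi a split between mice with a share above any at -2 dpi and mice without the genus.

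In naïve mice the genus came and went without treatment. In order of day, the means were 0.819% ± 0.933, 0.0477% ± 0.0751, 0.264% ± 0.425, 1.28% ± 1.04 and 1.73% ± 2.09 (SD, n = 6 each), and the genus was detected in 4, 2, 2, 5 and 3 of 6 mice. At 29 dpi mice 561, 562 and 563 held 2.33%, 2.98% and 5.04% and mice 558, 559 and 560 were at 0. In every naïve group at least 1 mouse lacked the genus. Neighboring group means differ by less than the larger SD of the pair, though mostly by more than the smaller. Where it was detected, the median share was 1.21% over 16 naïve samples, 1.69% over 11 CFA samples and 4.61% over 27 EAE samples.

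**Figure D2:**
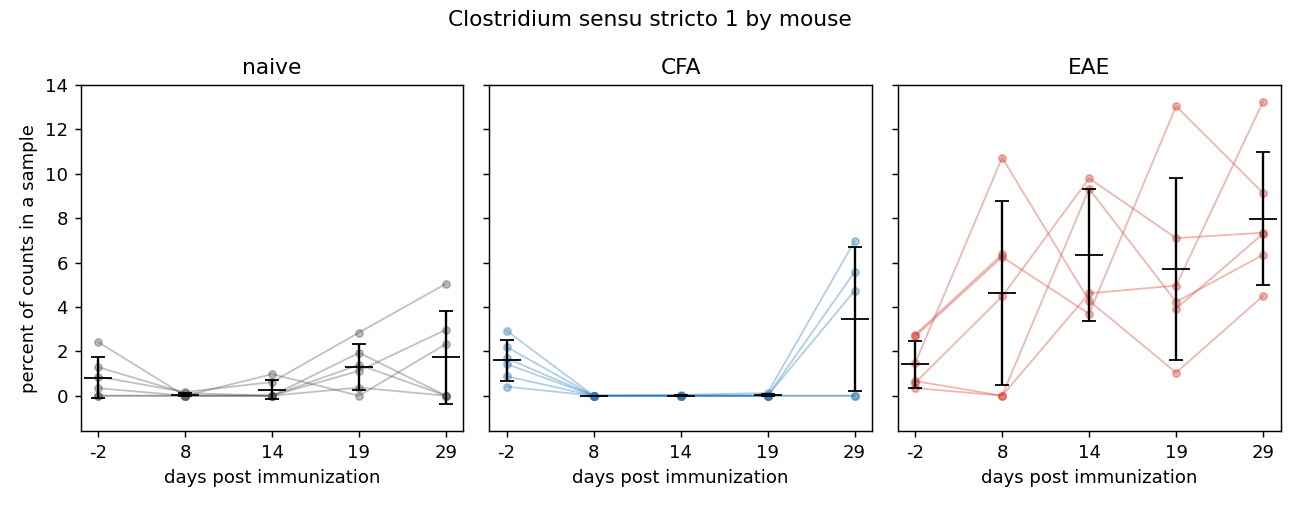
Clostridium sensu stricto 1 as percent of the counts of a sample (vertical axis) by day post immunization (horizontal axis, evenly spaced), with a panel for each treatment, a point for each mouse, lines joining the samples of a mouse, and black bars for the group mean ± SD. All EAE points from 14 dpi on lie at or above 1.04%, whereas CFA points at 8, 14 and 19 dpi lie at or below 0.125%.

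The EAE/CFA comparison separates peptide and toxin from adjuvant alone. At 8 dpi, Clostridium sensu stricto 1 was higher in EAE mice by 4.64 percentage points, with P-adj = 0.000385 in the edgeR test, where 26.2% of genera passed. The groups overlapped because of the 2 EAE mice at 0, and the exact permutation test of the mean percent (two-sided, here and below) did not pass, with P-adj = 0.362. Fisher's exact test of presence (4 of 6 against 0 of 6 mice) gave P-adj = 0.640 for its species label. The edgeR call sets EAE mice against a CFA group with no counts, where edgeR values can be too small. At 14 dpi the difference was 6.33 points with P-adj = 0.00923 by edgeR, where 13.8% of genera passed, and P-adj = 0.0256 by exact permutation, where 18.5% passed, and no EAE mouse overlapped a CFA mouse. At 19 dpi it was 5.69 points, again without overlap, with P-adj = 0.0281 by exact permutation, where 9.23% of genera passed. By edgeR the value at 19 dpi was P-adj = 0.0618, short of the threshold of 0.05, where 10.8% of genera passed. The genus passed at 19 dpi (P-adj = 7.25e-07) in a limma-voom fit with the mouse number as a random block. That fit changes the tool as well as adding the block, and the correlation within a mouse number was only 0.0346 for genera. Which of these gave the call was not tested. No share of all genera or families passing is given for this fit, here or below. EAE mice carry other numbers from 14 dpi on, so the block does not join their earlier and later samples. At 29 dpi the L2FC was 0.75 with P-adj = 1 by edgeR, where 7.69% passed, and the percent test gave P-adj = 0.506. Leaving out any single EAE mouse took the exact permutation value at 14 dpi above the threshold, to at most P-adj = 0.0563, while the edgeR value there stayed between 0.00118 and 0.0228. The groups stayed apart in each of these exact tests. With fewer mice the smallest possible permutation p is higher, so this loss does not show that the call hinges on any single mouse.

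The EAE/naïve comparison sets immunized against untreated mice. The mean share of Clostridium sensu stricto 1 in EAE mice was above that in naïve mice by 4.59, 6.07, 4.44 and 6.25 percentage points at 8, 14, 19 and 29 dpi. By edgeR no day passed, with L2FC of 6.16, 4.28, 1.12 and 1.82 and P-adj of 0.0777, 0.179, 0.960 and 0.779. The shares of genera that did pass were 12.3%, 6.15%, 6.15% and 9.23%. In the limma-voom fit with the mouse number as a random block the genus passed at 14 dpi (P-adj = 0.000365) and 29 dpi (P-adj = 0.0143). By exact permutation the genus passed at 14 dpi, with P-adj = 0.0352 and no overlap between the groups, where 12.3% of genera passed, and P-adj was 0.739, 0.100 and 0.0703 at 8, 19 and 29 dpi. The call at 14 dpi was lost in 10 of 11 exact tests that left out 1 mouse, with P-adj between 0.0397 and 0.0774. With all mice the exact permutation p was 0.00433, the smallest possible for 5 against 6 mice. Leaving out a mouse raises that limit and keeps the groups apart. These losses therefore do not show that the call hinges on any single mouse.

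The CFA/naïve comparison asks what the adjuvant does alone. At 8 dpi Clostridium sensu stricto 1 was lower in CFA mice by edgeR (P-adj = 0.0152, where 21.5% of genera passed). That call rests on 2 naïve mice, at 0.122% and 0.164%, against 6 CFA mice at 0, and the exact permutation test gave P-adj = 0.894. At 14 and 19 dpi the edgeR values were P-adj = 0.0913 and 0.0898, and the exact permutation values 0.778 and 0.141. In the limma-voom fit with the mouse number as a random block the call at 8 dpi was lost (P-adj = 0.50) and 19 dpi passed (P-adj = 0.00718). At 29 dpi the L2FC was 1.08 with P-adj = 0.877 by edgeR. The shares of genera that passed by edgeR at 14, 19 and 29 dpi were 9.23%, 7.69% and 7.69%.

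Each mouse was also set against its own sample at -2 dpi. Among CFA mice, the share of C. celatum/disporicum was lower than at -2 dpi in 6 of 6 mice at 8, 14 and 19 dpi, with median changes of -1.56, -1.54 and -1.50 percentage points. The edgeR test over species labels compares the days as groups and does not pair the samples of a mouse. Of these days only 8 dpi passed it, with P-adj = 0.00111, where 3.16% of 95 species labels passed. The values at 14 and 19 dpi were P-adj = 0.0895 and 0.0874, and with the mouse number as a block in the same edgeR test they were P-adj = 0.000337 and 0.00132. At 29 dpi 3 of 5 CFA mice were above and 2 below their value at -2 dpi. Among EAE mice, joined across days by the subject number of the deposited sample table, the share was higher than at -2 dpi in 4 of 6, 5 of 5, 5 of 6 and 6 of 6 mice at 8, 14, 19 and 29 dpi, with median changes of 3.60, 4.27, 4.09 and 6.07 points. None of these days passed the same unpaired edgeR test (L2FC of 1.50, 2.07, 1.45 and 2.41, P-adj between 0.658 and 1). Nor did the changes in naïve mice, whose P-adj was 0.230 at 8 dpi and 1 after that.

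The change since -2 dpi was then compared between treatments as a difference of differences, again without pairing by mouse unless a block is named. It differed between EAE and CFA mice for C. celatum/disporicum at 8 dpi (edgeR, P-adj = 0.00153, where 15.8% of species labels passed) and at 14 dpi (P-adj = 0.0288, where 11.6% passed). At 14 dpi all 5 EAE mice moved up and all 6 CFA mice moved down. At 19 dpi the edgeR value was P-adj = 0.103, and at 29 dpi it was 1.00. With the subject number as a block, a setting added after seeing the data, the edgeR value at 19 dpi was P-adj = 0.00318. The change in CFA mice against that in naïve mice gave P-adj = 0.0559 at 8 dpi and 0.307 at 19 dpi by edgeR, the latter 0.00345 with the mouse number as a block, and the change in EAE mice against naïve mice gave 0.197 at 8 dpi.

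At the rank of the family the minor genera enter the sum. The family averaged 0.937%, 0.343%, 0.776%, 1.76% and 1.84% in naïve mice, 1.62%, 0.119%, 0.0766%, 0.106% and 3.45% in CFA mice and 1.45%, 4.64%, 6.34%, 5.94% and 8.05% in EAE mice, from the first day to the last. Against CFA mice, the family was higher in EAE mice by edgeR at 8 dpi (L2FC = 5.42, P-adj = 0.0300, where 39.1% of 23 families passed) and 14 dpi (L2FC = 6.26, P-adj = 0.0222, where 56.5% passed). At 19 dpi the L2FC was 4.90 with P-adj = 0.0550. In the limma-voom fit with the mouse number as a random block the family passed in EAE/CFA at 19 and 29 dpi (P-adj = 0.00213 and 0.0287). It also passed there in EAE/naïve at 29 dpi (0.0276) and in CFA/naïve at 14 and 19 dpi (0.0276 and 0.0115). The correlation within a mouse number in that fit was only 0.00149 for families. By exact permutation of the percents the family was higher in EAE than in CFA mice at 14 dpi (P-adj = 0.0142, where 34.8% of families passed) and 19 dpi (P-adj = 0.00996, where 21.7% passed), both without overlap. With shares of this size passing, a call for the family is not particular to it.

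Against naïve mice, the family was higher in EAE mice by exact permutation at 14 dpi, by 5.56 points (P-adj = 0.0166, where 26.1% of families passed, no overlap), and at 29 dpi, by 6.21 points (P-adj = 0.0373, where 17.4% passed). By edgeR no EAE/naïve comparison of the family passed, with P-adj between 0.210 and 1. The family was lower in CFA than in naïve mice at 19 dpi by exact permutation, by a difference of -1.65 points (P-adj = 0.0249, where 8.7% passed, no overlap). The same comparison by edgeR gave P-adj = 0.150. Counting shares only outside Lactobacillaceae changed none of these permutation calls for the family or for Clostridium sensu stricto 1.

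Much of this pattern belongs to a single 16S sequence. Sequence 1 was present in 51 samples, 15 naïve, 9 CFA and 27 EAE, from 17 mice, and EAE samples held 70.9% of its counts against 14.2% in naïve samples. Among 202 distinct sequences tested, it was higher in EAE than in CFA mice by edgeR at 8 dpi (P-adj = 0.00152, where 7.92% of sequences passed), 14 dpi (P-adj = 0.0357, where 8.91% passed) and 19 dpi (P-adj = 0.00349, where 14.9% passed). At 19 dpi it was lower in CFA than in naïve mice (edgeR P-adj = 0.00502, where 12.9% passed). All 6 CFA mice were at 0 for sequence 1 at 19 dpi, because the counts of mouse 543 there came from sequence 8, which has the same genus label. Tested as 16 separate ASVs with primers kept, 1, 2 and 0 of them passed for EAE/CFA at 8, 14 and 19 dpi, and 0 for CFA/naïve at 19 dpi. So the calls at 19 dpi depended on joining the primer variants, and they hold for sequence 1 alone. The genus, which adds the counts of sequence 8, did not pass by edgeR at 19 dpi. Its P-adj was 0.0618 for EAE/CFA and 0.0898 for CFA/naïve.

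The other sequences of the genus were rare, with 3 samples at most. Each was found in 1 treatment, as any sequence in 1 sample must be, and so few samples do not tie a sequence to a treatment. Sequence 5, 99.5% identical to sequence 1, was found in EAE mice only, in mouse 591 at 14 dpi (0.226%) and 29 dpi (0.169%) and in mouse 595 at 29 dpi (0.170%). At 29 dpi it was higher in EAE than in naïve mice by edgeR (P-adj = 0.0486, where 35.6% of sequences passed), a call that rests on 2 mice. Sequence 4, 99.8% identical to sequence 1, was found in CFA mouse 548 at -2 dpi (0.410%) and CFA mouse 543 at 29 dpi (0.433%). Sequences 8 to 11 were each found in 1 sample, with 0.125% in CFA mouse 543 at 19 dpi for sequence 8, 0.122% in naïve mouse 559 at 8 dpi for sequence 9, and 13 and 8 counts in EAE mice 589 and 588 at 29 dpi for sequences 10 and 11. Sequences 8 and 9 were 99.8% identical to sequence 1, sequence 11 was 94.3% identical, and sequence 10 was 88.2% identical and nearer to a Peptostreptococcaceae sequence (91.2%).

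Tyzzerella-Clostridium XlVb had the opposite distribution, with most of its counts in naïve mice. Clostridium colinum is known as the agent of ulcerative enteritis of quail and other birds, and the name here rests on a 16S match. At -2 dpi the genus was detected in 1 of 6 mice of each treatment. After -2 dpi it was detected in 17 of 24 naïve, 2 of 23 CFA and 3 of 23 EAE samples, which are repeated samples of the same mice. The gap thus came with more positive naïve mice, while presence stayed low in the other treatments. In naïve mice the means were 0.118%, 0.295%, 0.512%, 0.480% and 0.120% over the 5 days in order, with 1, 4, 5, 5 and 3 of 6 mice positive. Where present in naïve mice the share had a median of 0.517% and ranged from 0.153% to 0.877%. At 14 dpi the naïve mean of 0.512% ± 0.298 (SD, n = 6) stood against 0 in all 5 EAE mice and 0.0411% ± 0.101 (n = 6) in CFA mice. No naïve mouse was positive on all 5 days, and the groups of every treatment overlapped at 0.

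The tests of this genus were near the threshold. By edgeR it was lower in EAE than in naïve mice at 8 dpi (P-adj = 0.0438), where 4 of 6 naïve and 0 of 6 EAE mice carried it, and P-adj was 0.0603 at 14 dpi. Without EAE mouse 555, the sample of lowest total, the edgeR value at 8 dpi was P-adj = 0.0750. By edgeR it was lower in CFA than in naïve mice at 8 dpi (P-adj = 0.0408 as a genus and 0.0528 as a species label). By exact permutation the differences at 14 dpi, -0.512 points for EAE/naïve and -0.470 points for CFA/naïve, gave P-adj = 0.130 and 0.0985. Presence alone, by Fisher's exact test at 14 dpi in EAE and naïve mice (0 of 5 against 5 of 6), gave p = 0.0152 and P-adj = 0.288. For the main genus Fisher's exact test gave p = 0.0152 in EAE/CFA at 14 dpi (5 of 5 against 1 of 6) and at 19 dpi (6 of 6 against 1 of 6), with P-adj = 0.111 and 0.288, and no comparison of presence passed for any member.

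The 2 main sequences with the C. colinum label were never found in the same sample. Sequence 2 was found in 13 naïve samples from all 6 naïve mice, in 0 CFA samples and in 2 EAE samples. In naïve mice it lay between 0.153% and 0.877%, the highest in mouse 562 at 14 dpi. Its EAE samples were mice 593 and 594 at 19 dpi, at 1.10% and 0.249%. Sequence 3 was found in 5 naïve, 3 CFA and 2 EAE samples from 9 mice, between 0.173% in CFA mouse 548 at -2 dpi and 0.844% in naïve mouse 558 at 19 dpi. Sequence 12, the last with this label, was found in naïve mouse 562 at 8 dpi with 4 counts. Naïve mouse 560 carried sequence 3 at -2 and 8 dpi (0.710% and 0.242%) and sequence 2 at 14 dpi (0.530%). At 29 dpi sequence 2 was lower in EAE than in naïve mice by edgeR (P-adj = 0.0486), a call that rests on 2 naïve mice at 0.269% and 0.153%.

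**Figure D3:**
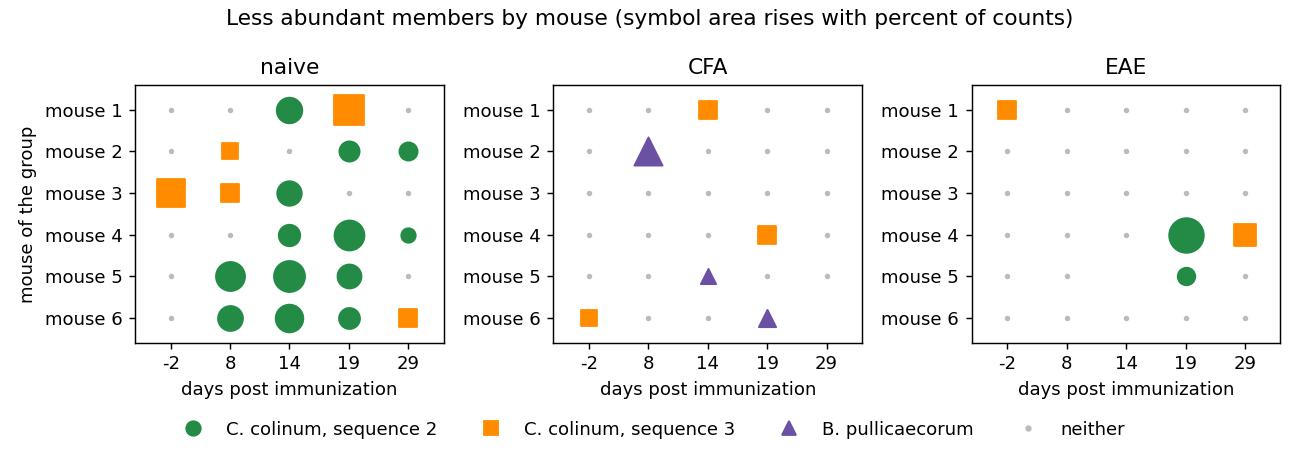
Less abundant members by mouse (vertical axis, 6 mice of a treatment in order of number) and day post immunization (horizontal axis), with a panel for each treatment. Symbol area rises with the percent of counts, circles are C. colinum sequence 2, squares are C. colinum sequence 3, triangles are Butyricicoccus pullicaecorum, small dots are samples with none of these and an empty place is a mouse with no sample used. Sequence 2 is seen in naïve mice from 8 dpi on and in 2 EAE samples, and Butyricicoccus in 3 CFA samples.

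Butyricicoccus was found in CFA mice only, in a different mouse each day. Mouse 544 held 0.715% at 8 dpi (502 counts, sequence 6), mouse 547 held 0.177% at 14 dpi (151 counts, sequence 7) and mouse 548 held 0.241% at 19 dpi (87 counts, sequence 7). These 3 samples held no other member of the family, and the family counts of CFA mice at 8 dpi came from mouse 544 alone. No comparison of the genus passed, with the lowest edgeR values at 8 dpi, P-adj = 0.0574 for EAE/CFA and 0.0700 for CFA/naïve. For EAE/CFA the edgeR p before adjustment was 0.0159, from 1 positive CFA mouse against 6 EAE mice at 0. Neither the exact permutation test nor Fisher's exact test showed a difference there. Against a group with no counts, edgeR values can thus be small on 1 positive mouse. Of the 3 genera, 1, 1 and 2 thus passed the edgeR test at 8 dpi in EAE/naïve, EAE/CFA and CFA/naïve, 1 at 14 dpi in EAE/CFA, where 12.3%, 26.2%, 21.5% and 13.8% of all genera passed, and none of the 3 in the other 11 comparisons of treatment and day.

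The same order holds larger families, and they did not move as a block with Clostridiaceae. Of 10 other names in the order, 8 could be tested. For EAE/CFA the edgeR test called 1, 2, 3, 2 and 2 of them higher and 0, 2, 3, 1 and 0 lower over the 5 days in order. For EAE/naïve it called 0, 1, 2, 1 and 3 higher and 0, 1, 0, 1 and 0 lower. Peptostreptococcaceae, the family of Romboutsia, was higher in EAE mice in both comparisons from 8 dpi to 29 dpi. Clostridiales_vadinBB60 was lower in EAE mice in both comparisons at 8 and 19 dpi, and Peptococcaceae was already higher in EAE than in CFA mice at -2 dpi. The median L2FC over the 8 families lay between -0.54 and 0.30 for EAE/CFA, where that of Clostridiaceae was -0.60, 5.42, 6.26, 4.90 and 0.76 over the 5 days in order. For EAE/naïve the median lay between -0.75 and 0.85, and that of Clostridiaceae was 0.17, 3.48, 2.73, 0.75 and 1.72. For CFA/naïve 1 family or none was higher and 1 was lower on each day.

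Among EAE mice the share of the family was set against the clinical score, which grades paralysis, and body weight, on the 2 days with 6 scored mice. At 19 dpi scores ran from 0 to 4, and Pearson's r was 0.114 (exact permutation p = 0.839, adjusted p = 0.839 over the 4 relations) with Spearman's rho of -0.0883 (exact p = 0.933). Without the 2 mice farthest from the median share r was -0.841, so the value rests on which mice are counted. At 29 dpi scores ran from 2.25 to 3.75, and r was -0.550 (exact p = 0.250, adjusted p = 0.50), rho -0.406 (exact p = 0.444), and r was -0.701 without the 2 farthest mice. For body weight r was 0.564 at 19 dpi (exact p = 0.233, adjusted p = 0.50), with rho of 0.0286 (exact p = 1) and r of -0.614 without the 2 farthest mice. At 29 dpi r for weight was 0.356 (exact p = 0.383, adjusted p = 0.511), with rho of 0.829 (exact p = 0.0583, adjusted p = 0.233) and r of 0.997 without the 2 farthest mice. No relation passed, and 6 mice leave wide room for relations that could not be detected.

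**Figure D4:**
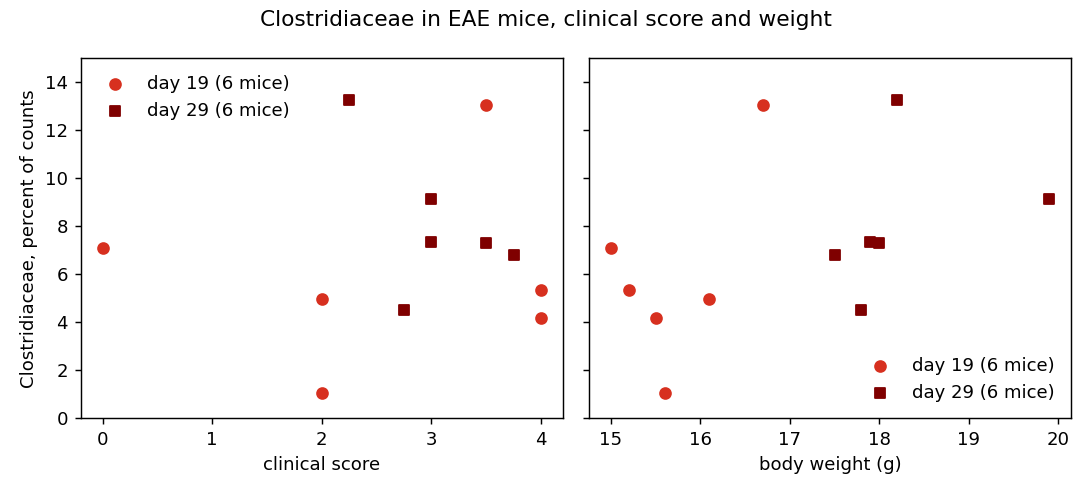
Clostridiaceae as percent of counts (vertical axis) against clinical score (left panel) and body weight in grams (right panel) in EAE mice, with a circle for each of 6 mice at 19 dpi and a square for each of 6 mice at 29 dpi. Scores ran from 0 to 4 at 19 dpi and from 2.25 to 3.75 at 29 dpi, and no relation within a day passed the exact permutation test.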

How the data were processed

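The authors amplified regions V3 and V4 of the bacterial 16S gene from fecal DNA, inferred ASVs with DADA2 and curated the taxonomy by hand, and deposited the raw read counts of each ASV in each sample, with no scaling. The authors also deposited, by mouse and day, a clinical score and the body weight (g). The sequencing batch of a sample is not given in the sources used here. Of 89 samples, a CFA sample with a total of 0 was left out and its group tested with 5 mice, and 2 water controls were not analysed here. No samples were identical in their counts.

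From the counts, members were selected by family name, summed by genus, species label and sequence without primers, and given as percent of the total of a sample. Groups are treatment and day as labelled. Each whole rank was tested, for taxa found in 3 or more samples, by the edgeR 4.0.16 quasi-likelihood method under R 4.3.3, using 15 groups in 1 fit, TMMwsp factors from genus counts and Benjamini-Hochberg adjustment within each comparison at 0.05. A group with no counts gives no usable fold change, so percents are given there. The edgeR p against such a group can also be small on few positive mice. Exact permutation tests took every split of the mice in NumPy 2.4.6, and Fisher's tests (presence as 3 or more counts) used SciPy 1.17.1. Both were two-sided and run under Python 3.11.15. The smallest permutation p possible was 0.00216 for 6 against 6 mice and 0.00433 for 5 against 6. Both sets of scripts were run on simulated data. For edgeR these data had a single spread for all taxa, and the fit used no TMMwsp factors. That run therefore does not check the edgeR calls under the settings used here.

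Mouse numbers mark the same animal across days. EAE mice carry other numbers from 14 dpi on and were joined by the subject number of the sample table. Correlations of same-animal deviations between days had medians between -0.0669 and 0.283 over treatments and pairs of days. The block was used as an alternative, fixed for changes within mice and random (limma 3.58.1) between treatments, where animals are nested.

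All genera and species labels are named, with sequences in 3 or more samples described and the rest counted, and other families of the order counted by call. Members, lists and tests were chosen with earlier results of these data known. Other alternatives were DESeq2 1.42.0, library totals without further factors, rare taxa kept, the compared groups fitted alone, omission of EAE mouse 555 at 8 dpi or of each mouse beside a group of 5, ASVs as deposited, centred log ratios (0.5 counts added), shares outside Lactobacillaceae, pooled reads, other count minimums, and rarefying to the lowest total.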

Additional observations from a re-analysis of the deposited data

Results flagged for a closer look

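Several values stood far from the rest of their group of 5 or 6 mice by Dixon's criterion. Its usual rate by chance, about 1 of 20 groups, does not hold here, because a lone value above 0 always meets it. All of the flagged values were the only value, or the highest of very few values, above 0 in the group. For Clostridium sensu stricto 1 these were CFA mouse 543 at 14 dpi (0.0364%) and 19 dpi (0.125%). For Tyzzerella-Clostridium XlVb they were, at -2 dpi, naïve mouse 560 (0.710%), CFA mouse 548 (0.173%) and EAE mouse 550 (0.234%), and later CFA mouse 543 at 14 dpi (0.247%), CFA mouse 546 at 19 dpi (0.271%) and EAE mouse 593 at 19 dpi (1.10%) and 29 dpi (0.444%). For Butyricicoccus they were CFA mouse 544 at 8 dpi (0.715%), mouse 547 at 14 dpi (0.177%) and mouse 548 at 19 dpi (0.241%), and the first of these also stood apart in the sum of the family, at 0.715%.

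The change since -2 dpi differed between treatments in tests of that difference with edgeR. For C. celatum/disporicum the change in EAE mice differed from that in CFA mice at 8 dpi (P-adj = 0.00153) and 14 dpi (P-adj = 0.0288). For its sequence 1, the change in EAE mice differed from that in CFA mice at 8 dpi (P-adj = 0.00298), 14 dpi (P-adj = 0.0470) and 19 dpi (P-adj = 0.00455). The change in CFA mice differed from that in naïve mice at 19 dpi (P-adj = 0.0153). All CFA mice were at 0 for sequence 1 at 8 and 19 dpi. The species label, which adds sequence 8, gave edgeR P-adj = 0.103 for EAE against CFA changes at 19 dpi. No share of all sequences passing is given for these calls of sequence 1.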

How the results depend on the processing

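Of 28 results past the threshold, none changed direction under any alternative run for it, and 33 of their 199 alternative values lost the call. Values are adjusted p unless named otherwise, the genus is Clostridium sensu stricto 1, and where the text gives no cause, the cause was not tested.

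Under DESeq2, calls were gained for the family in EAE/naïve at 8 dpi (0.0354), EAE/CFA at 19 dpi (0.00414) and CFA/naïve at 14 dpi (0.0400), within CFA mice at 8 and 14 dpi (0.00541 and 0.00435), and in the change of EAE against CFA mice at 8 and 14 dpi (0.0157 and 0.0117). For the genus they were gained in EAE/naïve at 8 dpi (0.00435), EAE/CFA at 19 dpi (0.00145) and CFA/naïve at 14 and 19 dpi (0.00574 and 0.0341). For its species label they were gained within CFA mice at 14 and 19 dpi (5.65e-05 and 0.0145) and in the changes of EAE against CFA mice at 19 dpi (0.0300) and CFA against naïve mice at 8 and 14 dpi (8.16e-17 and 0.0279). For sequence 1 they were gained in EAE/naïve at 8 dpi (0.00177) and CFA/naïve at 8 and 14 dpi (2.37e-23 and 0.00691). The signs of the change of CFA against naïve mice at 29 dpi and of sequence 3 in EAE/naïve at 29 dpi turned (1 each).

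With library totals only, EAE/CFA at 19 dpi passed for the family (0.0262) and the genus (0.0183). With only the compared groups in the fit it passed too (0.0463 and 0.0416), and calls were lost for the family in EAE/CFA at 8 dpi (0.120) and the genus in CFA/naïve at 8 dpi (0.126).

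Limma-voom with the mouse number as a random replicate block changes both tool and block. The correlation within a mouse number was 0.00149 for families and 0.0346 for genera. Calls were gained there for the family in EAE/naïve at 29 dpi (0.0276), EAE/CFA at 19 and 29 dpi (0.00213 and 0.0287) and CFA/naïve at 14 and 19 dpi (0.0276 and 0.0115). For the genus they were gained in EAE/naïve at 14 and 29 dpi (0.000365 and 0.0143), EAE/CFA at 19 dpi (7.25e-07) and CFA/naïve at 19 dpi (0.00718). The genus lost its call in CFA/naïve at 8 dpi (0.50). Signs turned for the family in CFA/naïve at 29 dpi (0.940) and for Tyzzerella-Clostridium XlVb and its species label in EAE/CFA at -2 dpi (0.935 and 0.959). A fixed mouse number block gained calls for the species label within CFA mice at 14 and 19 dpi (0.000337 and 0.00132) and for CFA against naïve changes at 19 dpi (0.00345), and turned signs at 29 dpi within naïve mice, within CFA mice and between their changes (1 each). The subject number as a block gave 0.000698 and 0.00240 within CFA mice and, added after seeing the data, 0.00318 for EAE against CFA and 0.00587 for CFA against naïve changes at 19 dpi, and turned signs at 29 dpi within naïve and CFA mice and between their changes, and for EAE against naïve changes at 19 dpi (1 each).

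Without a filter, sequence 1 lost its call in EAE/CFA at 14 dpi (0.0771). As ASVs, sequence 1 passed in EAE/naïve at 14 dpi (0.0416) and was lost at 19 dpi in EAE/CFA (0.0737) and CFA/naïve (0.0816), and sequence 3 turned sign in EAE/CFA at -2 dpi (0.0857). On the centred log ratio, the genus passed in EAE/CFA at 8 dpi (difference 9.89, P-adj = 0.0352, exact permutation) and Butyricicoccus turned sign in CFA/naïve at 14 dpi (difference -0.130).

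Leaving out 1 mouse kept the percent difference of the genus at 14 dpi between 5.21 and 6.74 points for EAE/naïve and between 5.47 and 7.00 for EAE/CFA. At the lowest total 3 counts are 0.0326% and 50 counts 0.543%, and shares below these can be missed. The call of Tyzzerella-Clostridium XlVb in EAE/naïve at 8 dpi lay between 8.25e-10 and 0.0750 over 6 settings and was lost in 4. Its call in CFA/naïve at 8 dpi was lost in 1 of 5 settings (0.0706, only the compared groups), and the calls of sequences 2 and 5 in EAE/naïve at 29 dpi were lost in 1 of 2 settings (0.149 and 0.152).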

Other observations

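At 29 dpi the presence of Clostridium sensu stricto 1 split by neighboring label numbers. The genus was above 0 in CFA mice 543, 544 and 545 and at 0 in 546 and 547, and it was above 0 in naïve mice 561, 562 and 563 and at 0 in 558, 559 and 560. At -2 dpi the neighboring naïve mice 560 and 561 were at 0, and 558, 559, 562 and 563 were above 0. Positive mice were not all neighbors at 8 dpi, with the genus in naïve mice 559 and 563 alone. The same holds for naïve mice at 14 dpi (561 and 563 alone) and EAE mice at 8 dpi (550, 553, 556 and 557 but not 551 and 555). The cage of each mouse is not given in the sources used here, and whether any of these sets are cages was not tested.

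The 34 samples at 0 for Clostridium sensu stricto 1 had a median total of 60638.5 counts, against 65799.5 in the 54 samples that held it. Clostridium sensu stricto 1 and Tyzzerella-Clostridium XlVb were found together in 16 samples.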
